A study of Mus musculus with 6 samples.

Results

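The genes described here are the nuclear-encoded subunits of oxidative phosphorylation. They were chosen by symbol as the protein-coding genes of the mouse GRCm38 annotation that begin with Nduf followed by a, b, c, s or v and a digit, the 4 Sdh genes a to d, and those that begin with Uqcr, Cox4 to Cox8 or Atp5. The rule used no measured value and gave 85 genes of 36034 nuclear genes to which the deposited transcripts could be assigned: 37 of complex I, 4 of complex II, 8 of complex III, 18 of complex IV and 18 of complex V. Their RNA was compared between mice given LGK-974 and mice given its DMSO vehicle after myocardial ischemia-reperfusion (I/R), a model in which a coronary artery is closed for a time and then opened again. LGK-974 (LGK974 in the sample labels) inhibits Porcupine, which attaches a lipid to Wnt proteins in the endoplasmic reticulum and without which they cannot leave the cell.

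All 6 animals were C57BL6 mice aged 12 weeks, female per the methods of the study, with no engineered allele, and all had I/R injury. The 3 LGK-974 mice received the inhibitor by daily oral gavage in citrate buffer, and the 3 DMSO mice received buffer with DMSO. Total RNA of the infarcted area was taken at 48 h, so each library holds the RNA of a mixture of cells from 1 mouse. No uninjured heart and no protein, enzyme activity or oxygen consumption was analysed here.

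Oxidative phosphorylation takes place in the inner mitochondrial membrane. Complex I (NADH dehydrogenase) and complex II (succinate dehydrogenase) pass electrons to ubiquinone, complex III (cytochrome bc1) hands them on to cytochrome c, and complex IV (cytochrome c oxidase) passes them to oxygen. Complexes I, III and IV pump protons, and complex V (ATP synthase) uses the gradient to make ATP. The mitochondrial genome encodes a few core subunits of complexes I, III, IV and V, and all other subunits, including all of complex II, are encoded in the nucleus. The beating heart depends on this pathway for most of its ATP, and several complex IV subunits come in a heart and muscle form and a form found in most tissues.

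The 6 libraries held 41579787 to 80398211 estimated counts, of which 28.17% to 53.72% were mitochondrially encoded in the LGK-974 mice and 39.34% to 42.77% in the DMSO mice. The labels name both a ribosomal RNA depletion kit and the TrueSeq RNA Access library kit, and the part of these steps in the mitochondrial share was not tested. After these were removed, 23717834 to 45415424 counts remained, and levels are given as CPM, counts relative to the size of this nuclear library, scaled by the trimmed mean of M values (TMM). DMSO replicate 1 stood apart. Its log-scale correlation with the other libraries was 0.871 to 0.939, against 0.956 to 0.984 among the other 5. As a background of mostly silent genes, 1501 olfactory, vomeronasal and taste receptor genes were taken. Their median was 1.71 CPM per kb there against 0.0957 to 0.498 elsewhere. All 15 cardiomyocyte markers were measured, and their summed level was 76534 to 123116 CPM. In bulk tissue, fewer cardiomyocytes and less RNA per cardiomyocyte cannot be told apart.

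Most of these genes were lower in mean in the LGK-974 mice, but none passed the test after adjustment. Of the 85 genes, 82 had at least 10 counts in at least 3 libraries and were tested. In edgeR's quasi-likelihood test over 20081 genes, 0 of the 82 and 0% of all genes had an adjusted p below 0.05, and the lowest adjusted p of any gene was 0.368, while 2690 genes had an unadjusted p below 0.05. DESeq2 called 0 of the 82 and 341 of all genes. The fitted log2 fold change (LGK-974 over DMSO) of the 82 had a median of −0.34, a ratio of 0.789, and ran from −0.66 to 0.44. The median over all tested genes was −0.13, a ratio of 0.913. A value below 0 was found in 79 of 82, against 59.5% of all tested genes, and 74 of 82 lay below the median of all genes. The 3 genes above 0 were Cox6a1, Cox8a and Ndufa4l2.

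At an unadjusted p below 0.05, 2 of 82 genes were lower (Cox8b and Atp5mpl), against 7.15% of all tested genes. In the other direction 1 of 82 passed (Cox6a1), against 6.24% of all tested genes. The 3 LGK-974 libraries all lay below the 3 DMSO libraries for 6 of 82 genes (Ndufs6, Sdhc, Uqcrh, Cox4i2, Cox6b2 and Atp5mpl), against 7.28% of all tested genes. They all lay above for Cox6a1, against 10.7% of all tested genes. The shares of single genes that passed or separated were therefore at or below those of all genes. In description the list differed from all genes by a small shared shift, which was not particular to it. The 13 tricarboxylic acid cycle genes had a median of −0.36 and the 15 cardiomyocyte markers one of −0.445, as described below. The shift relative to all genes was present when libraries were scaled to total nuclear counts, where the median of the list was −0.16 and that of all genes 0.08, but there 0 of 82 genes were lower at an unadjusted p below 0.05 against 5.06% of all genes, and 0 of 82 were separated lower against 3.7%. With that scaling 69 of 82 values were below 0.

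**Figure D1:**
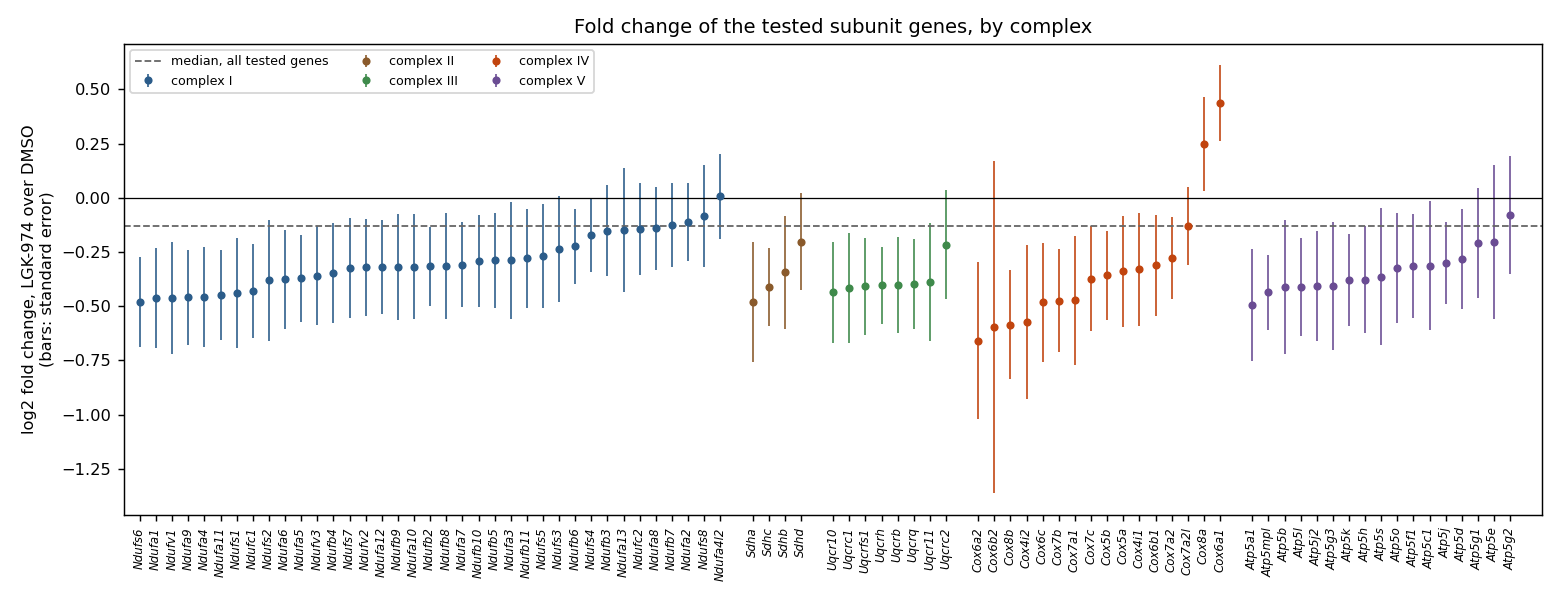
Fitted log2 fold change, LGK-974 over DMSO, of each of the 82 tested genes by complex, with bars of 1 standard error and a dashed line at the median of all 20081 tested genes. 79 of the 82 points lie below 0, from −0.66 to −0.08, and Cox6a1 and Cox8a of complex IV lie above it at 0.44 and 0.25.

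The shift was uneven between animals of a group. The summed level of the 82 tested genes was 13972, 20152 and 12786 CPM in LGK-974 replicates 1, 2 and 3, and 17071, 19467 and 24096 CPM in DMSO replicates 1, 2 and 3. The group means were 15637 ± 3955 CPM and 20211 ± 3571 CPM (SD, n = 3 each), a ratio of 0.774, and the groups overlapped because LGK-974 replicate 2 sat above DMSO replicates 1 and 2. DMSO replicate 3 was the highest library for 69 of 82 genes. LGK-974 replicate 3 was the lowest for 48 and LGK-974 replicate 1 for 25. LGK-974 replicate 2 lay within the DMSO range for 71 genes and above the DMSO mean for 40. So the 82 genes moved largely together from library to library. These CPM depend on the TMM factors. The factor of DMSO replicate 1 was 0.791, against 0.999 to 1.12 in the other libraries, and division by it raised the CPM of that library. As a share of unscaled nuclear counts the list made up 1.52%, 2.07% and 1.44% in the LGK-974 mice. In the DMSO mice it was 1.35%, 1.96% and 2.41%, with DMSO replicate 1 the lowest library and a ratio of means of 0.879.

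Leaving out single libraries changed the counts widely. Without LGK-974 replicate 2 the median was −0.56, 38 of 82 genes were lower at an unadjusted p below 0.05 against 4.4% of all genes, and 69 were separated lower against 15.3% of all genes. Without DMSO replicate 1 the median was −0.44, 25 of 82 were lower at that p against 4.47%, and 35 were separated lower against 13.5%. Without DMSO replicate 3 the median was −0.14 with that of all genes at −0.02, 0 genes were lower at that p against 14.5%, and 3 were separated lower against 23.8%. Without DMSO replicate 2, 15 were separated lower against 12.6%. Without LGK-974 replicate 1 it was 3 against 11.6%, and without LGK-974 replicate 3 it was 3 against 7.77%. The share of the list was thus above that of all genes without LGK-974 replicate 2, DMSO replicate 1 or DMSO replicate 2, and below it without any of the other 3 libraries. Values below 0 numbered 67 of 82 without DMSO replicate 3 and 76 to 80 without any other single library. No gene of the list passed at an adjusted p below 0.05 in any of these 6 fits.

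**Figure D2:**
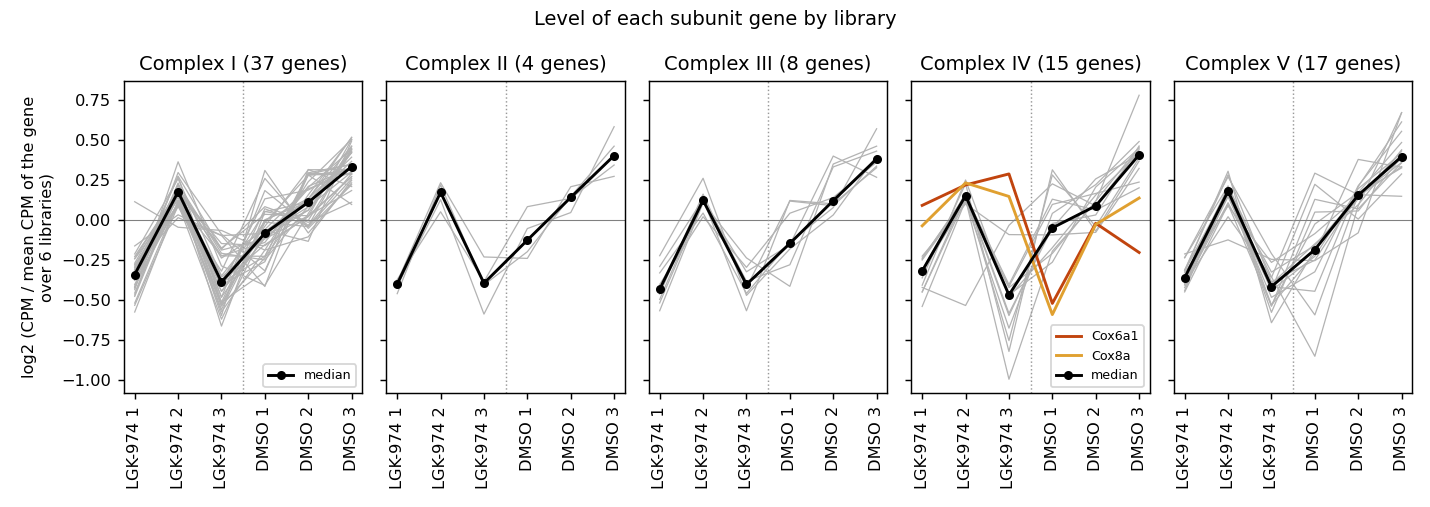
Level of each tested gene in the 6 libraries relative to its own mean over all 6 (log2 CPM), in a panel for each complex, with a thin line joining the values of a gene, a black line for the median and no order among replicates. Cox6b2, with at most 26 counts in a library, is left out of the complex IV panel; most lines are lowest in LGK-974 replicates 1 and 3, and 69 of 82 genes are highest in DMSO replicate 3.

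Markers of some other cells differed between the groups at an unadjusted p. All 16 leukocyte markers had log2 fold changes above 0, with a median of 0.96. Their summed level was 1128 to 1475 CPM in the LGK-974 mice and 608 to 748 CPM in the DMSO mice. The study reported the other direction for cells. Its flow cytometry of whole hearts, in other mice at the same time, found fewer leukocytes and inflammatory monocytes with LGK-974. Marker RNA of the infarcted area and counts of cells are unlike measures, and the difference was not tested. The 12 fibroblast markers had a median of 0.44, and summed to 7048 to 11595 CPM against 3502 to 5192 CPM. The 12 endothelial markers had a median of 0.03 and the 7 erythroid markers of −0.07. None of these markers passed at an adjusted p below 0.05. At an unadjusted p below 0.05 in edgeR, 15 leukocyte and 5 fibroblast markers were higher, against 6.24% of all tested genes. These 5 were the matrix genes Postn, Col3a1, Col1a1, Col1a2 and Fbn1, at 0.88 to 1.56, and the fibroblast sum is weighted to them. Col3a1 and Col1a1 had means of 2707 and 2172 of 8884 CPM in the LGK-974 mice. In the DMSO mice they had 1231 and 997 of 4568 CPM. The other fibroblast markers overlapped between the groups, from 0.005 for Dcn to 0.49 for Lum.

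The cardiomyocyte markers went the way of the respiratory genes. Of 15, 14 had values below 0, with a median of −0.45, and the exception was Actc1 (cardiac alpha-actin) at 0.86. Their sum was 78864, 109931 and 76534 CPM in the LGK-974 libraries and 89787, 110729 and 123116 CPM in the DMSO libraries. Counts of the 82 tested respiratory genes per count of cardiomyocyte marker were 0.177, 0.183 and 0.167 against 0.190, 0.176 and 0.196, so the mean ratio was 0.939 times the DMSO mean and the groups overlapped. This marker sum is weighted to Ttn. Its mean was 42729 of 88443 CPM in the LGK-974 mice and 49339 of 107877 CPM in the DMSO mice. The log2 fold change of Ttn was −0.21, nearer 0 than the marker median. The part of leukocytes, fibroblasts and cardiomyocyte content in the lower values was not tested.

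**Figure D3:**
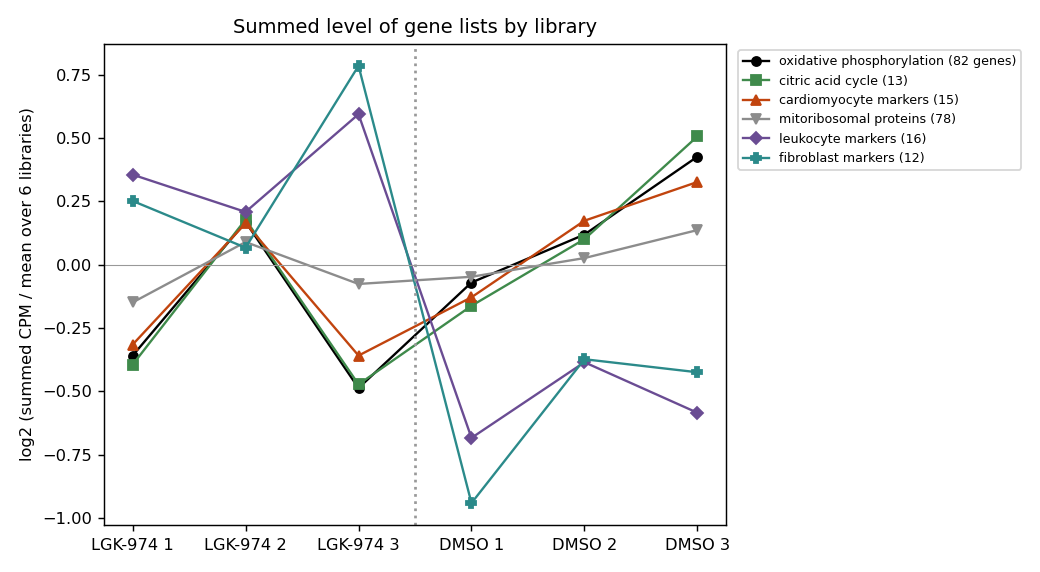
Summed CPM of the 82 tested respiratory genes and of 5 other gene lists (citric acid cycle, cardiomyocyte, mitoribosomal, leukocyte, fibroblast) in each library, relative to the mean of the 6 libraries (log2), with lines joining the values of a list. In TMM-scaled CPM the respiratory and cardiomyocyte lists are lowest in LGK-974 replicates 1 and 3 and highest in DMSO replicate 3. The leukocyte sums of the LGK-974 mice, 1128 to 1475 CPM, lie above those of the DMSO mice.

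Complex I takes electrons from NADH, and its 37 genes had the median nearest 0 of the 5 complexes, −0.32, with 36 of 37 below 0. Their summed level was 3827, 5510 and 3614 CPM in the LGK-974 mice and 4674, 5240 and 6313 CPM in the DMSO mice, which overlap. Ndufs6, which encodes a small zinc-binding subunit, had 66.3, 108 and 74.0 CPM against 108, 113 and 125 CPM, and LGK-974 replicate 2 lay just below the lowest DMSO mouse. Its log2 fold change was −0.48 (SE 0.209, unadjusted p = 0.0518, adjusted p = 0.368), and 15.1% of its 31-base words also occur in other genes, among them the near copy Ndufs6b.

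Ndufa11, an accessory subunit of the membrane arm, had 35.3, 55.1 and 38.3 CPM against 49.3, 63.0 and 63.1 CPM, and Ndufa9, an accessory subunit at the junction of the arms, had 68.9, 98.4 and 63.3 CPM against 91.0, 100 and 126 CPM. In both genes LGK-974 replicate 2 lay above DMSO replicate 1, and the log2 fold changes were −0.45 (SE 0.209) and −0.46 (SE 0.219). Ndufa4, named as a complex I subunit but now known to belong to complex IV, had a log2 fold change of −0.46 (SE 0.231) and Ndufs1, an iron-sulfur subunit of the matrix arm, −0.44 (SE 0.255). Ndufv3, which had the highest level per length in complex I at 661 CPM per kb, had 175, 247 and 149 CPM against 217, 235 and 280 CPM. Its log2 fold change was −0.36 (SE 0.228, adjusted p = 0.451).

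Ndufa4l2, a paralog of Ndufa4 known to be induced by hypoxia, was the gene of this group without a lower mean. It had 15.7, 14.0 and 13.8 CPM against 12.7, 13.4 and 17.2 CPM, so DMSO replicate 3 was the highest and DMSO replicate 1 the lowest of all 6. Its log2 fold change was 0.01 (SE 0.195), and this sign turned in 2 other settings and without each of 3 libraries. At 23.3 CPM per kb it was the lowest in complex I, where the median gene had 199 CPM per kb.

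Complex II oxidises succinate and is shared with the tricarboxylic acid cycle. The flavoprotein Sdha had 474, 690 and 420 CPM against 609, 653 and 947 CPM, with LGK-974 replicate 2 above both lower DMSO mice, and a log2 fold change of −0.48 (SE 0.276). The iron-sulfur subunit Sdhb had 190, 304 and 197 CPM against 228, 290 and 360 CPM, a log2 fold change of −0.34 (SE 0.259). The membrane anchor Sdhc had 76.2, 102 and 75.5 CPM against 105, 108 and 125 CPM. All LGK-974 values of Sdhc lay below all DMSO values, with a log2 fold change of −0.41 (SE 0.180, unadjusted p = 0.0514, adjusted p = 0.368). The other anchor, Sdhd, had 76.9, 118 and 85.7 CPM against 85.2, 116 and 122 CPM and the value nearest 0 of the 4, −0.20 (SE 0.222).

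The 8 genes of complex III had the lowest median of the 5 complexes, −0.40, and the narrowest range, from −0.44 to −0.22. Their sum was 1036, 1466 and 978 CPM against 1263, 1479 and 1741 CPM, with LGK-974 replicate 2 just under DMSO replicate 2. Uqcrh, the acidic hinge subunit, had 78.7, 106 and 84.8 CPM against 107, 115 and 134 CPM and no overlap, with a log2 fold change of −0.40 (SE 0.177, unadjusted p = 0.0531, adjusted p = 0.368). Uqcrq and Uqcr10, small subunits of the membrane part, had −0.40 (SE 0.208) and −0.44 (SE 0.233). Uqcrb, the ubiquinone-binding protein, had the highest level per length of complex III at 1119 CPM per kb and 305, 409 and 252 CPM against 407, 401 and 469 CPM. Of its 31-base words 34.8% occur in other genes, so its level is less certain. Uqcrfs1, the Rieske iron-sulfur protein that carries electrons to cytochrome c1, had 54.1, 84.0 and 61.8 CPM against 69.5, 102 and 93.3 CPM.

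Complex IV had the widest spread, from −0.66 for Cox6a2 to 0.44 for Cox6a1, which are the heart and the ubiquitous form of the same subunit. Among subunits with a single main form, Cox4i1, the regulatory subunit to which ATP binds, had 227, 358 and 216 CPM against 267, 336 and 404 CPM, a log2 fold change of −0.33 (SE 0.261). Cox7b had 101, 154 and 92.3 CPM against 134, 165 and 184 CPM, a log2 fold change of −0.47 (SE 0.238), and Cox6b1, on the intermembrane face, −0.31 (SE 0.233). Cox7a2l, a paralog of Cox7a2 rather than a single form, had 90.8, 114 and 99.7 CPM against 99.5, 101 and 133 CPM. Its log2 fold change of −0.13 (SE 0.181) became 0.07 with scaling to total nuclear counts.

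For Cox6a, Cox7a and Cox8 the heart form and the ubiquitous form are separate genes. The 250 bases before the start site of these genes are shown because each form is transcribed from a promoter of its own. They are from RefSeq (GRCm38.p6, 5′ to 3′ on the strand of the gene), and Cox6a2 is named only. Capitals mark matches, on either strand, to a motif of NRF1, a regulator of respiratory genes (the letters GCGCA and GCGC on the sides of any base), or of ETS factors such as GABP (CCGGAAG). An ERR motif (AAGGTCA) was searched on both strands as well. So were the YY1 motif (AAGATGG with CGGC directly after it), the TATA motif (TATAAA) and the MEF2 motif. A match is a description of letters and not a bound site.
Cox6a1 (chr5:115348959-115349208, minus strand): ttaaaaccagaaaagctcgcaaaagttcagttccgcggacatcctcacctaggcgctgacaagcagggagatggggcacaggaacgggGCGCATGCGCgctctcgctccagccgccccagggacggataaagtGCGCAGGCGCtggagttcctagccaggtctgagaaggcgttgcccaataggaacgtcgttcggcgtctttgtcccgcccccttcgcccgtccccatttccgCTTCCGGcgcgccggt
Cox8a (chr19:7217617-7217866, minus strand): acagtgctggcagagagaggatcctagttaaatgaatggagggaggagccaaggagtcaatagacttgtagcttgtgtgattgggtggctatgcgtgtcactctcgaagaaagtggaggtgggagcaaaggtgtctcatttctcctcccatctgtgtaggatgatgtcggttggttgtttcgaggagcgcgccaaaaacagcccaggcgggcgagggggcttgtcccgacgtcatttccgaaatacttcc
Cox8b (chr7:140900447-140900696, minus strand): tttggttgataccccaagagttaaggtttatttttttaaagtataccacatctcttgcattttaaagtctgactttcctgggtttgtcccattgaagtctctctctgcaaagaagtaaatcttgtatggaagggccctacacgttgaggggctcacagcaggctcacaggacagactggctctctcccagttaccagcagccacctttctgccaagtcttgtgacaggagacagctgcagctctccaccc
Cox7a1 (chr7:30183921-30184170, plus strand): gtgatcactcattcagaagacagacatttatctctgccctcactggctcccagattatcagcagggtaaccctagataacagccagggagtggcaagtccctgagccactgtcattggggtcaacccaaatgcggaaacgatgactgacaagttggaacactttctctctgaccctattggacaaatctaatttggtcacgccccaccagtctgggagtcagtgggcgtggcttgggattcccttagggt
Cox7a2 (chr9:79759854-79760103, minus strand): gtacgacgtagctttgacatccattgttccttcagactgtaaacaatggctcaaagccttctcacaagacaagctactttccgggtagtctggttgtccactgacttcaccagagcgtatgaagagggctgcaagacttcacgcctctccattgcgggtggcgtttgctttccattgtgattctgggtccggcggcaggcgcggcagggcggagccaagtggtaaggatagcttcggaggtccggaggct
The Cox6a1 stretch held 2 NRF1 matches, 162 and 117 bases before the start, and 1 ETS match 16 bases before it. The other stretches held none. In the longer windows that add the 50 bases after the start, Cox8a held an ETS match and Cox8b a TATA match. Cox7a1 and Cox7a2 held none there. The stretches held 26 CpG pairs for Cox6a1, 11 for Cox8a and 14 for Cox7a2, the ubiquitous forms, and 1 for Cox8b and 4 for Cox7a1, the heart forms.

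Cox6a1 was the only one of the 82 genes with all LGK-974 values above all DMSO values. It lies on chr5:115345642-115348981 (minus strand) and had 105, 115 and 121 CPM in the LGK-974 mice against 68.9, 97.5 and 85.9 CPM in the DMSO mice, means of 114 ± 7.80 and 84.1 ± 14.4 CPM (SD, n = 3 each). Its log2 fold change was 0.44 (SE 0.175, unadjusted p = 0.0381, adjusted p = 0.368). It ran from 0.31 to 0.54 when single libraries were left out and from 0.40 to 0.63 in the other settings, with adjusted p of 0.176 to 0.476 in the latter. Of its 31-base words 18.5% are shared, with a pseudogene that had at most 4 counts. Its heart counterpart Cox6a2 had 561, 838 and 384 CPM against 669, 829 and 1317 CPM, which overlap, and a log2 fold change of −0.66 (SE 0.363, unadjusted p = 0.108).

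Cox8a, the ubiquitous form of the smallest subunit, had 140, 169 and 160 CPM against 95.5, 141 and 158 CPM. DMSO replicate 1 was low and the other values overlapped, and the log2 fold change was 0.25 (SE 0.216). The heart form Cox8b had 143, 227 and 130 CPM against 215, 243 and 293 CPM, where LGK-974 replicate 2 exceeded DMSO replicate 1. Its log2 fold change was −0.59 (SE 0.252, unadjusted p = 0.0495, adjusted p = 0.368). The heart form Cox7a1 had 499, 750 and 362 CPM against 797, 611 and 828 CPM, and the ubiquitous Cox7a2 had 148, 195 and 132 CPM against 191, 183 and 201.2 CPM. Their log2 fold changes were −0.47 (SE 0.297) and −0.28 (SE 0.190). Cox7a1 had the highest level per length of all 82 genes, 3215 CPM per kb.

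A ratio of counts of the forms within a library does not depend on how libraries are scaled. The ratio of Cox6a2 to Cox6a1 counts was 5.32, 7.28 and 3.18 in the LGK-974 mice and 9.72, 8.50 and 15.3 in the DMSO mice, with no overlap. The difference in log2 ratio was −1.12, with p = 0.1 in the exact two-sided permutation test over 20 splits (adjusted over 3 ratios 0.15), the smallest p that 3 against 3 mice allow. The ratio of Cox8b to Cox8a was 1.02, 1.34 and 0.817 against 2.25, 1.72 and 1.85, again without overlap. The difference was −0.89, with exact permutation p = 0.1 (adjusted 0.15).

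The ratio of Cox7a1 to Cox7a2 was 3.38, 3.85 and 2.74 against 4.16, 3.35 and 4.11 and overlapped, with a difference of −0.23 (exact permutation p = 0.3, adjusted 0.3). Without any single library the differences stayed between −1.40 and −0.80 for Cox6a, between −1.08 and −0.72 for Cox8, and between −0.34 and −0.10 for Cox7a. The ubiquitous forms are also made by leukocytes and fibroblasts. The leukocyte markers in sum, and the matrix genes among the fibroblast markers, were higher in the same libraries as given above. The part of these cells in the ratios was not tested.

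**Figure D4:**
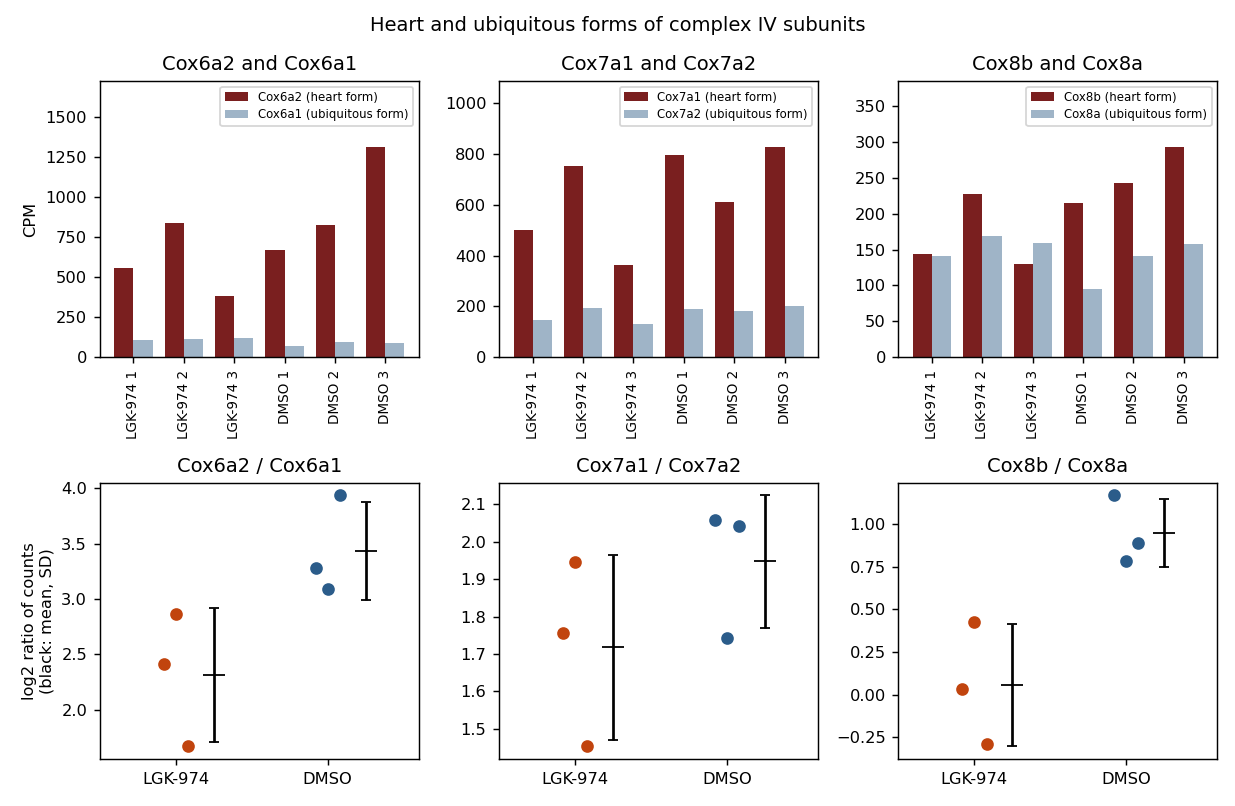
Upper panels, CPM of the heart and the ubiquitous form of Cox6a, Cox7a and Cox8 in each library. Lower panels, log2 ratio of their counts, with a point for each mouse and the group mean and SD in black. The LGK-974 points lie below all DMSO points for Cox6a2 over Cox6a1 and Cox8b over Cox8a, and overlap for Cox7a1 over Cox7a2.

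A further pair of complex IV forms was low. Cox4i2, the form of Cox4 known from lung and low oxygen, had 2.67, 2.47 and 3.496 CPM against 4.19, 3.80 and 4.85 CPM without overlap, a log2 fold change of −0.57 (SE 0.354, unadjusted p = 0.146). Cox6b2, the testis form, had 16 to 26 counts per library and also did not overlap, at 0.526, 0.641 and 0.430 CPM against 0.691, 0.924 and 0.802 CPM, with a log2 fold change of −0.60 (SE 0.767). Per length Cox6b2 stood at 1.55 to 3.34 CPM per kb. The receptor genes taken as background had a median of up to 1.71 CPM per kb in DMSO replicate 1, so Cox6b2 was near that background there. Cox7b2, Cox8c and the second of a pair of genes named Atp5o were too low to test. Cox7b2 had 7, 3 and 12 counts against 35, 6 and 4, with the 35 in DMSO replicate 1, the library with the highest receptor background. Cox8c had 1 count in DMSO replicate 1 and 0 in every other library. The second Atp5o had 1 count in DMSO replicate 3 and 0 in every other library, and it shares 94.0% of its 31-base words with other genes.

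Complex V makes ATP, and all 17 tested genes had values below 0, with a median of −0.36. Their sum was 4743, 6954 and 4438 CPM against 5576, 6878 and 8422 CPM. Atp5mpl, a small subunit of the membrane part, was the gene of the list with the smallest p and did not overlap. It had 107, 143 and 110 CPM against 173, 158 and 157 CPM, a log2 fold change of −0.43 (SE 0.173, unadjusted p = 0.0373, adjusted p = 0.368). The catalytic beta subunit Atp5b had the highest level per length of complex V, 2105 CPM per kb, and 1116, 1667 and 1070 CPM against 1195, 1736 and 2199 CPM. Its partner in the catalytic head, Atp5a1, had 676, 988 and 637 CPM against 907, 1041 and 1293 CPM. Both overlapped, with log2 fold changes of −0.41 (SE 0.309) and −0.49 (SE 0.259). The membrane subunits Atp5l and Atp5j2 both had −0.41 (SE 0.227 and 0.255).

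Subunit c of the rotor ring is encoded by 3 genes whose mature proteins are the same and whose control differs. Atp5g1 had 287, 434 and 273 CPM against 300, 400 and 447 CPM, Atp5g2 63.4, 90.1 and 64.5 CPM against 49.4, 83.3 and 97.4 CPM, and Atp5g3 179, 256 and 178 CPM against 174, 274 and 363 CPM. The groups overlapped in all 3, and the log2 fold changes were −0.21 (SE 0.253), −0.08 (SE 0.272) and −0.41 (SE 0.293). The sign of Atp5g2 turned to 0.09 with scaling to total nuclear counts and to 0.19 without DMSO replicate 3, and 37.5% of its 31-base words are shared with other genes.

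Scaled by length, the median gene of complexes I to V had 199, 188, 304, 531 and 514 CPM per kb. The highest genes were Cox7a1 at 3215, Cox6c at 2217, Atp5b at 2105, Cox6a2 at 1602 and Atp5k at 1593 CPM per kb. The effective length of transcripts this short depends on the fragment length assumed by the authors' tool, so levels compared between short and long genes are less certain than levels of 1 gene compared between mice.

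Within genes, the shares of transcripts were described for the 25 genes with a second protein-coding transcript at 50 or more counts in every library, and no test was made. The minor transcript had a separated, higher share in the LGK-974 mice in 2 of 25, against 5.39% of 2985 genes with such a pair, and a separated, lower share in 0, against 6.7%. These numbers are small and near the background, and the genes given here were singled out after their values were seen. For Ndufv3, a complex I subunit known to have a long and a short form, the long form with the extra coding exon of 1092 bases at chr17:31527310-31528401 made up 11.4%, 11.04% and 14.7% against 7.68%, 7.995% and 8.75%. For Sdha, a transcript lacking 9 exons of the main one made up 14.2%, 11.6% and 13.4% against 10.4%, 7.94% and 11.4%. For Atp5c1, the gamma subunit, a transcript with a 37-base exon at chr2:10056770-10056806 made up 16.2%, 13.1% and 17.4% against 10.03%, 13.5% and 13.6%, and the groups overlapped.

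Genes that serve the pathway outside the list were followed in lists of their own, and 0 of them passed at an adjusted p below 0.05. Of 5 tested subunits or partners whose symbols the rule does not match (Ndufab1, Cyc1, Cycs, Atpif1 and Usmg5), all had values below 0, with a median of −0.32. All 13 genes of the tricarboxylic acid cycle were below 0 too, with a median of −0.36, and Suclg2, a subunit of succinyl-CoA ligase, was the only one at an unadjusted p below 0.05. Suclg2 had 60.0, 72.3 and 55.2 CPM against 100, 75.9 and 90.2 CPM, a log2 fold change of −0.51 (SE 0.177). By contrast 47 assembly factors, which build the complexes without staying in them, had a median of −0.09, with 29 below 0 and 18 above. The 78 mitochondrial ribosomal protein genes, which translate the mitochondrially encoded subunits, had a median of −0.05, with 47 below 0 and 31 above. Those medians lay nearer 0 than the −0.13 of all genes.

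Of 16 regulators of mitochondrial gene expression 9 were below 0 and 7 above, with a median of −0.12. At an unadjusted p below 0.05 in edgeR, 5 were lower and 1 higher, against 7.15% and 6.24% of all tested genes. Ppargc1a, the coactivator PGC-1 alpha, had 97.3, 172 and 73.0 CPM against 169, 165 and 255 CPM, a log2 fold change of −0.78 (SE 0.337), and LGK-974 replicate 2 overlapped the DMSO mice. Tfb2m, a factor of mitochondrial transcription, had 39.8, 40.7 and 33.0 CPM against 51.4, 51.0 and 64.6 CPM without overlap, a log2 fold change of −0.56 (SE 0.165). The other 3 that were lower were Tfb1m at −0.77, Esrrb at −0.775 and Esrrg at −0.49, and the related coactivator Pprc1 was higher at 0.46. Tfb1m had 28.1 CPM in DMSO replicate 1, the library that stood apart, against 17.4 and 14.0 CPM in DMSO replicates 2 and 3. The adjusted p of Ppargc1a and Tfb2m was 0.368.

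RNA of the 13 subunits encoded by mitochondrial DNA was ordered otherwise among the libraries, highest in LGK-974 replicate 2 and lowest in LGK-974 replicate 3. Per count of the 82 tested nuclear genes there were 50.3, 56.1 and 27.3 mitochondrial counts in the LGK-974 mice and 48.0, 37.3 and 31.04 in the DMSO mice, and the groups overlapped.

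The promoters of the list differed in letters from those of all genes. RefSeq promoter windows, 250 bases before to 50 bases after the start, were found for 66 of 84 symbols, in 71 windows. An NRF1 match lay in 25.4% of them against 4.6% of all 32851 windows, an ETS match in 22.5% against 8.9%, an ERR match in 11.3% against 4.7% and a YY1 match in 5.6% against 0.6%. TATA was found in 11.3% against 13.6% and MEF2 in 0% against 3.2%. The windows of the list were richer in GC, 57.3% against 52.7% at the median, and held 19 CpG pairs against 7, so NRF1, ETS and YY1 letters, which contain CpG, move with this base composition and the part of composition was not tested.

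**Figure D5:**
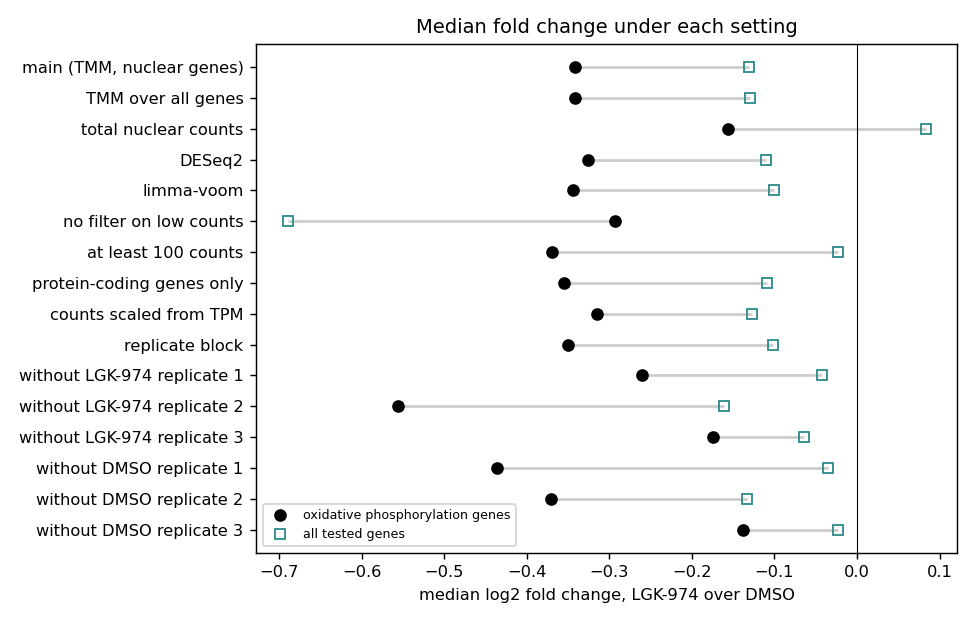
Median log2 fold change of the tested genes of the list and of all tested genes in the main analysis, under each other setting and without each library. The list lies below 0 throughout, from −0.56 without LGK-974 replicate 2 to −0.14 without DMSO replicate 3; with no filter on low counts the median of all genes, −0.69, lies below that of the list.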

How the data were processed

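RNA-seq libraries of the infarcted area of 6 mouse hearts (3 LGK-974, 3 DMSO, 1 mouse each) were sequenced after ribosomal RNA depletion, with libraries from the TrueSeq RNA Access kit. The authors deposited, per library, estimated counts and TPM of 118489 transcripts, made by pseudoalignment with kallisto to a transcriptome index of the Ensembl assembly GRCm38. The tool version and annotation release were not given in the sources used here. The deposited estimated counts were joined by transcript to GENCODE vM21 (116816 transcripts, 99.59% to 99.75% of counts), summed per gene and rounded. Transcripts that share sequence divide reads by estimation, so words of 31 bases shared between genes were counted. The deposited TPM served in an alternative and in naming genes.

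Mitochondrially encoded genes were removed before library sizes. Genes reaching 10 counts in 3 or more libraries were tested with edgeR 4.0.16 (TMM, quasi-likelihood, two-sided, treatment only) in R 4.3.3, with Benjamini-Hochberg adjustment over all 20081 genes. Intervals from counting alone were not used. SD is over the mice of a group. SE is that of the fitted log2 fold change, taken as its size divided by the square root of the F statistic of edgeR's test. That statistic uses a variance moderated across genes, so SE is not the plain spread over mice. Ratios of 2 genes were tested by exact permutation (SciPy 1.17.1). The fit was tested on simulated data with the fitted dispersion, in which 200 of 20081 genes were raised or lowered by 2 on the log2 scale. The raised ones had a median fitted log2 fold change of 2.09. Of the 200, edgeR recovered 52.5% with 11 false calls, and DESeq2 67% with 84 false calls. With a lower simulated dispersion edgeR recovered 74.5% with 14 false calls, and DESeq2 83% with 56. Changes as small as the shift of the list were not simulated.

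Alternatives were DESeq2 1.42.0, limma 3.58.1 (voom), other scalings and filters, a replicate block and leaving out each library. Genes are named where they had the 3 smallest p or the highest level in a complex, have a tissue form, are Sdh genes or went against the median, with a few others added after values were seen. The genes and lists were chosen with earlier results of these data known.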

Additional observations from a re-analysis of the deposited data

How the results depend on the processing

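The median log2 fold change of the list and of each complex stayed below 0 in every alternative, and the list had 0 genes at an adjusted p below 0.05 in each. The count of all genes called was 0 in the main analysis, 341 with DESeq2, 297 with no filter on low counts, and 0 to 1 without single libraries. Of the list, 2 genes were lower at an unadjusted p below 0.05 in the main analysis. That number was 6 with DESeq2, limma-voom and protein-coding genes only, 10 with at least 100 counts, 4 with the replicate block, 0 with total nuclear counts and with no filter, and 0 to 38 without single libraries. The number higher was 0 with no filter and with counts scaled from TPM, and 0 to 1 without single libraries. Over all genes the share lower at that p was 3.43% to 10.8% in the 9 settings with all libraries and 0.929% to 14.5% without single libraries. The number separated lower was 0 with total nuclear counts (3.70% of all genes), 2 with no filter (5.23%), 12 with at least 100 counts (8.19%) and 3 to 69 without single libraries (7.77% to 23.8%). The number separated higher was 1 to 3 without single libraries (14.8% to 21.1% of all genes). The cause was not tested.

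Values below 0 numbered 79 of 82 in the main analysis, 69 with total nuclear counts and 67 without DMSO replicate 3, so more genes turned than those named here. Among the named genes the sign turned for Atp5g2 with total nuclear counts (0.0864) and without single libraries (−0.3117 to 0.1895), and for Cox7a2l with total nuclear counts (0.0665) and without single libraries (−0.2243 to 0.0906). For Ndufa4l2 it turned with at least 100 counts (−0.0257), with protein-coding genes only (−0.0081) and without single libraries (−0.0715 to 0.2258). Scaling to total nuclear counts moved the median of all genes from −0.13 to 0.08. Same-numbered mice of the 2 groups correlated in their deviations at 0.481, −0.056 and 0.329, and differently numbered mice at −0.507 to 0.129. Whether the numbers mark pairs or a shared batch was not tested. The replicate block in edgeR gave 3309 genes at an unadjusted p below 0.05 against 2690, and 0 at an adjusted p in both. With 3 mice a group the standard errors of single genes in the list had a median of 0.231 on the log2 scale, about the size of the shift.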

Other observations

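The adenine nucleotide carriers, which exchange ATP and ADP across the inner membrane, also come as a heart form and a form of other tissues. The heart form Slc25a4 had 1269, 1896 and 942 CPM in LGK-974 replicates 1 to 3 against 1705, 1933 and 2302 CPM in the DMSO mice, and the other form Slc25a5 had 225, 243 and 220 CPM against 157, 227 and 187 CPM. Both overlapped, with log2 fold changes of −0.53 (SE 0.308, adjusted p = 0.422 in edgeR's quasi-likelihood test) and 0.27 (SE 0.186, adjusted p = 0.484). Of the 7 carriers listed, 5 had values below 0 and 2 above, with a median of −0.21. Among the 47 assembly factors, Acad9 had the lowest log2 fold change at −1.31 (SE 0.522), with 66.4, 54.1 and 49.7 CPM against 270, 96.6 and 54.6 CPM, and the 270 CPM came from DMSO replicate 1, the library that stood apart.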
